A study of Homo sapiens with 11 samples.

Results

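The response of PC-3 cells to a miR-373 duplex was measured on 1 Agilent whole human genome array of the 11 in the series, and this array, miR-373 sample 7, was set against mock sample 8 of the same slide. PC-3 is a human prostate carcinoma line that grows without androgen. Cells received the chemically synthesized duplex of miR-373 with its opposite strand, or the transfection reagent with no RNA (mock), and RNA was taken at 24 h. Each array holds 150 ng of RNA mixed from 4 transfections, so the spread between transfections is not visible in any value. Mock cells had no duplex at all, so that a response to any double-stranded RNA and a response to miR-373 itself cannot be told apart from this pair. The 4 mock arrays, samples 1, 8, 9 and 11, served as the yardstick of how far arrays without a duplex lie from each other. Sample 1 is from the slide of set 1 and samples 9 and 11 are from that of set 3, and the labels do not say whether the mock arrays hold separate mixes of RNA. Of the 41000 probes, the scanner software called 28041 well above background on either array or both. The authors' log2 table holds 21462 of these, and 16165 gene names. A lower signal in fewer cells and less RNA in every cell cannot be told apart. With 1 array a condition there is no test, and the words lower and higher below describe these arrays.

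miR-373 belongs to a cluster of miRNAs that embryonic stem cells and germ cell tumours express and that most adult tissues lack. A miRNA pairs through its seed, bases 2 to 8, with sites in the 3′ untranslated regions of mRNAs, which are then degraded or translated less. For miR-373 and its relatives, LATS2, TGFBR2, CD44 and RELA have been described as targets, and miR-373 has also been described as an activator of genes whose promoters it can pair with, CDH1 and CSDC2. The comparison addresses which transcripts differ after transfection of miR-373. Of transcripts with a site for its seed, only the study's lists, chosen on these arrays, are described. Whether a site goes with a lower level was therefore not tested.

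The mature sequences are shown because the seed is what the duplexes share and where miR-520f departs from them. They are from RefSeq on GRCh38.p14, 5′ to 3′, with bases 2 to 8 in capitals. miR-373-3p lies at chr19:53788748-53788770 on the plus strand.
miR-373-3p: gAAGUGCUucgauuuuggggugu
miR-373-5p: aCUCAAAAugggggcgcuuucc
miR-302a-3p: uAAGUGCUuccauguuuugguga
miR-372-3p: aAAGUGCUgcgacauuugagcgu
miR-520c-3p: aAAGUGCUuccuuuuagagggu
miR-520f-3p: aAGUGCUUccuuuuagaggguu
The seed AAGUGCU was identical in miR-373-3p, miR-302a-3p, miR-372-3p and miR-520c-3p, and its site in an mRNA reads AGCACUU. The opposite strand, miR-373-5p, has another seed. In miR-520f-3p the same letters are shifted by 1 base, and its site reads AAGCACU. Outside the seed the relatives differ. Over the whole length, 17 of 23 bases of miR-302a-3p, 16 of 23 of miR-372-3p and 15 of 22 of miR-520c-3p were identical to miR-373-3p at the same position.

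Fewer probes were detected on the miR-373 array than on its mock array. The share of probes well above background was 57.8% on miR-373 sample 7 and 67.0% on mock sample 8, within a range of 54.4% to 88.2% over the 11 arrays, and no spot was saturated. The authors' table for this set was limited to probes well above background on all 3 arrays of the slide. Levels per array are given below as log2 processed signal minus that of the array's 75th percentile (the scanner scale), and differences as miR-373 sample 7 minus mock sample 8 in the authors' log2 table, unless stated. Across the 21462 probes both scales gave nearly the same differences for most (r = 0.9974, with probes as points, which are no replicates). Marker genes were checked by whether they were detected, which does not establish the identity of the cells. All 10 genes listed for carcinoma cells of epithelial origin had a value, among them KRT8, KRT18, VIM and CD44. So did 8 of 12 luminal prostate genes that PC-3 cells largely lack. Of 14 markers of blood, endothelial and nerve cells, 5 were not well above background on either array, among them PTPRC, HBB, CDH5 and SYP, and 2, VWF and ALB, were well above it on mock sample 8 alone. The other 7 were well above it on both, and of the 6 with a value 5 lay within the mock range. KLK3, the prostate-specific antigen that PC-3 is known to lack, was bright on 1 of its 3 probes, designed on a splice variant, at 6.89 on miR-373 sample 7 and 6.97 on mock sample 8, whereas the other 2 were not well above background on either array.

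The differences of miR-373 from mock were small for most probes, with a median of -0.02 and an SD of 0.29 on the log2 scale. 128 probes were lower by at least 1 log2 unit, 0.596% of the probes, and 103 were higher by as much (0.48%). Mock samples 9 and 11, which share a slide, differed by at least as much on 123 probes in one direction and 207 in the other, with an SD of 0.36. Mock samples 8 and 1, from different slides, were closer, with an SD of 0.17 and 46 and 10 such probes. On the scanner scale used for these mock pairs, miR-373 had 124 lower and 99 higher probes. A count past 1 log2 unit alone therefore did not set miR-373 apart from the distance between mock samples 9 and 11. It was larger than the count between mock samples 8 and 1. With the normexp background correction the counts were 49 lower and 20 higher, so that the share of lower calls depended on this step. Among the 21433 probes measured on all mock arrays, miR-373 sample 7 lay under all 4 mock arrays on 5639 (26.3%) and over all 4 on 4271 (19.9%). Of the 128 lower probes 117 were also under all 4 mock arrays, and of the 103 higher probes 92 were over all 4. SDC1 at -1.0004 was the last probe inside the threshold and IKZF2 at -0.999 the first outside it.

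The spots behind both directions differed in quality. The SD of the pixels within a spot was above 25% of its mean signal on miR-373 sample 7 for 0 of the 128 lower probes, for 47 of the 103 higher probes (45.6%) and for 204 of all 21462 (0.951%). Of these uneven spots on the whole array, 1531 of 2159 lay in the first 28 of its 85 columns. These columns held 43 of the 128 lower (33.6%) and 63 of the 103 higher probes (61.2%), against 7047 of all 21462 (32.8%). Over all probes the share of uneven spots was 5.28% on miR-373 sample 7 and 29.5% to 33.6% on the 4 arrays of set 3, mock samples 9 and 11 among them. On probes with even spots on both arrays of the comparison, 127 were lower and 51 higher by at least 1. The limit of 25% was chosen after the values were seen, and its part in single values was not tested. The lower genes are therefore described first, and the pixel SD is given beside each higher gene.

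Transcripts described as targets of miR-373 or of miRNAs with its seed were mostly lower. Of 44 such genes 38 had a value, 29 were below 0, 6 were lower by at least 1 and none higher by as much, and the median was -0.29 against -0.03 over all genes. Under all 4 mock arrays lay 24 of the 38, 63.2% against 26.8% of all genes, and over them 3. TGFBR2, the type II receptor of TGF-beta, had 1.62 on miR-373 sample 7 and 3.07, 3.09, 3.46 and 3.38 on mock samples 1, 8, 9 and 11. It was 2.80-fold lower than on mock sample 8, and a second, dimmer probe of the gene differed by -1.12. Its probe lies at chr3:30710167-30710226 of hg18.

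DAZAP2, a small proline-rich adaptor protein, had 0.65 on miR-373 sample 7 against 2.08, 2.11, 2.82 and 3.00 on the mock arrays, a 2.79-fold difference. LATS2, a kinase of the Hippo pathway and the target of miR-373 first described in germ cell tumours, had -1.89 against -0.55, -0.58, -0.27 and -0.37 and was 2.49-fold lower. Its second probe differed by -1.21. In all 3 genes the miR-373 array lay apart from the mock arrays by more than the whole range of the mock arrays. MBD2, a reader of methylated DNA, differed by -1.24, FYCO1, which links autophagosomes to transport along microtubules, by -1.16, and TRPS1, a repressor of the GATA family, by -1.12. Next in order were the zinc-finger factor IKZF2, just short of -1, RABGAP1 at -0.94, RELA, the p65 subunit of NF-kB, at -0.88, KLF13 at -0.68 and BMPR2 at -0.64.

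Other described targets stayed close to mock. CD44, the hyaluronan receptor through which miR-373 was described to promote invasion, had 3.94 on miR-373 sample 7 against 3.87, 3.94, 4.16 and 4.41 on the mock arrays, a difference of -0.01. SIRT1, TXNIP and PPP6C had differences between 0.12 and 0.27 within the mock range. RAB11FIP1 was the highest of the list at 0.84, on a spot with a pixel SD of 42.5%. Probes of one gene could differ. MICA, a ligand of the NKG2D receptor of natural killer cells, had -0.37 on its brighter probe and -1.32 on the dimmer one, both under all 4 mock arrays. The 4 probes of VEGFA gave -0.16, 0.06, 0.38 and 1.90, and the last of these had a pixel SD of 51.1%.

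The study lists 323 probes of decreased and 114 of increased transcripts with a site for the common seed in their 3′ untranslated region. The lists were chosen on these arrays and are no independent evidence of a direction. On miR-373 sample 7 all 323 were below 0, with a median of -0.30, and 221 (68.4%) lay under all 4 mock arrays, and 13 were lower by at least 1 (4.02%). The 270 probes with 1 listed site had a median of -0.29 and the 53 with 2 or more sites one of -0.37, and those lower by at least 1 numbered 6 and 7. The 21025 probes on neither list had a median of -0.02, with 25.8% under all 4 mock arrays and 0.547% lower by at least 1. The number of sites did not order single genes, since KREMEN1 and TRIM58, among the genes with the most listed sites, had -0.59 and -0.03.

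GALNT3, an enzyme that starts O-linked glycosylation, had the lowest value of the decreased list. Its listed probe had -1.79 on miR-373 sample 7 and 0.16, 0.20, 0.61 and 1.00 on the mock arrays, a 4.00-fold difference. The other probe of the gene, far brighter at 3.92, differed by only -0.17 and lay within the mock range, so the probes of this gene did not agree. The scavenger receptor SCARA5 followed at -1.68, again with a brighter probe near 0 (-0.11), then MICA, LATS2, SEC23A, DYRK4, BTN3A2, PRRT2 and APCDD1L between -1.32 and -1.12. SEC23A, a subunit of the coat of vesicles that leave the endoplasmic reticulum, had 1.31 against 2.47, 2.62, 2.76 and 2.75, and a second probe gave -1.26. Of the 114 increased probes all were above 0 with a median of 0.19, and 2 were higher by at least 1. One was the uneven VEGFA spot at 1.90, and the other E2F5, a transcription factor of the cell cycle, at 1.00, with 0.25 on miR-373 sample 7 against -0.74, -0.76, -0.50 and -0.47 on the mock arrays.

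Among genes with a value in the authors' table, the lowest were interferon genes, whose products restrict viruses or sense double-stranded RNA. Of 33 listed genes 29 had a value, 27 were below 0, 12 were lower by at least 1 and none higher by as much, and the median was -0.86. Over all 16165 genes 92 were lower by at least 1. Under all 4 mock arrays lay 24 of the 29 (82.8%), against 26.8% of all genes. Of the 12 genes that were lowest under the naming rule, 7 were in this list. IFI44L had -3.83 on miR-373 sample 7 and -1.26, -1.26, -1.10 and -0.91 on mock samples 1, 8, 9 and 11. It was 5.92-fold lower than on mock sample 8, the lowest of the genes with a value in the authors' table, on a probe at chr1:78880178-78880237 of hg18. MX2, a dynamin-like GTPase that blocks viral replication, had -1.82 against 0.52, 0.51, 0.21 and 0.47, which is 5.12-fold lower, and RSAD2, which encodes viperin, had -3.15 against -0.95, -0.85, -0.78 and -0.26, which is 5.02-fold lower. In all 3 genes the gap to the lowest mock array was wider than the whole range of the mock arrays.

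Lower genes were found among effectors, sensors and the factors that drive the group, but not every member was lower. Among effectors, BST2, or tetherin, which holds virus particles at the cell surface, was at -1.97, but mock sample 11 at -1.67 lay near the -2.10 of miR-373. MX1 was at -1.61, IFI27 at -1.59, OAS1 at -1.53, IFI44 at -1.50 and ISG15, a ubiquitin-like protein, at -0.71. Among sensors of double-stranded RNA, IFIH1 (MDA5) had -2.09 on miR-373 sample 7 against -0.43, -0.50, -0.04 and 0.41, a 3.04-fold difference. DDX58 (RIG-I) was at -0.98 and EIF2AK2, the kinase PKR, at -0.54, each under all 4 mock arrays. IRF9 and STAT2, subunits of the factor that binds interferon-response elements, were at -1.19 and 0.23, the latter within the mock range. ADAR, which edits double-stranded RNA, was at 0.07, over all 4 mock arrays, on its brighter probe and at -0.21, within their range, on the other. OAS2, at -1.27, lay within the mock range, since mock sample 9 had -3.94. A second probe of OAS2, without a value in the authors' table, differed by -1.87 on the scanner scale and lay under all 4 mock arrays. DHX58, TLR3, IFNB1 and CXCL10 were not well above background on either array.

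The interferon genes also varied between mock arrays. Mock sample 9 minus mock sample 11 had a median of -0.38 over the 29 genes, and the SD of the 4 mock medians was 0.17. With all 4 mock arrays averaged as the control, the median under miR-373 was -0.93. The list was lower on some arrays of relatives and not on others. Below 0 were 27 of the 29 genes for miR-302a sample 3 and 26 and 27 for miR-372 samples 4 and 10, with medians of -0.51, -0.95 and -1.05. For dsEcad640, a duplex designed on the CDH1 promoter that shares the seed, 11 were below 0 with a median of 0.10, and for miR-520c sample 12 the number was 0 with a median of 0.71. miR-520f sample 6, set against the same mock array as miR-373, had a median of 0.39. A shared seed thus did not come with a shared direction of this list. The part of the seed, of other features of the duplexes and of the slide was not tested.

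**Figure D1:**
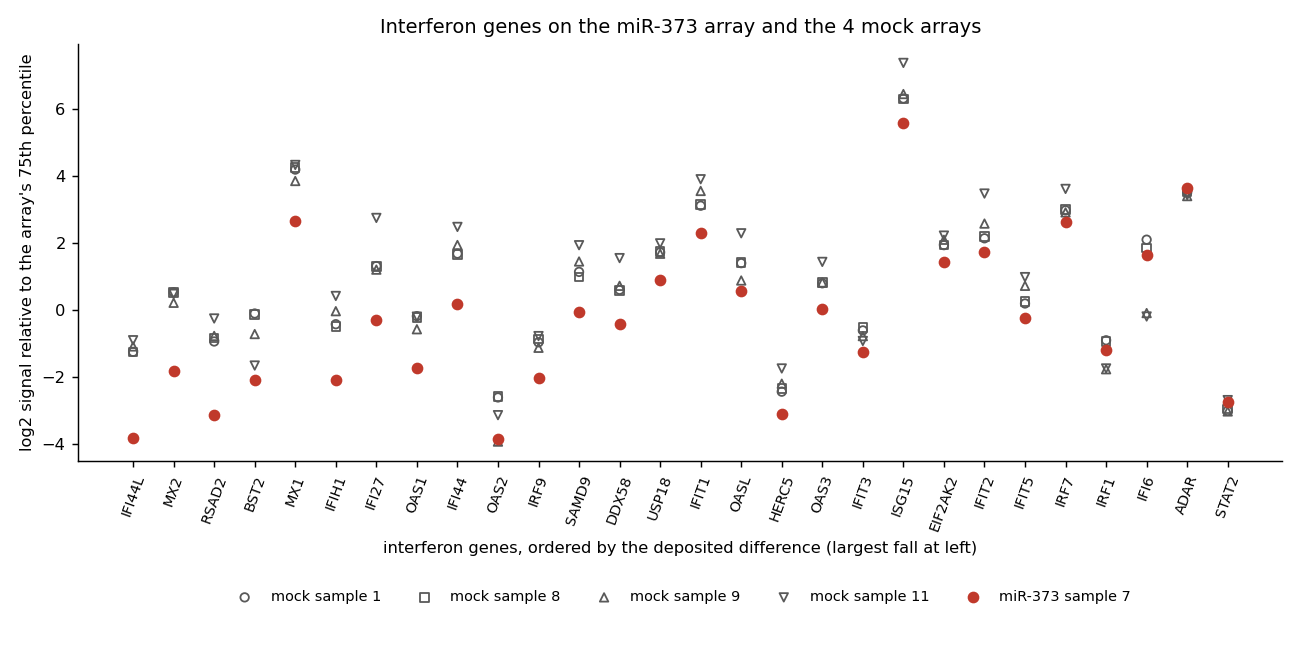
Level of 28 of the 29 interferon genes (x axis, ordered by difference) on miR-373 sample 7 (red) and on mock samples 1, 8, 9 and 11 (open symbols), on the scanner scale (log2, y axis). The red point lies under all 4 open symbols for 23 of these genes, with the widest gap for IFI44L, at -3.83 against -1.26 to -0.91.

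Genes of inflammation were lower as well, but the mock arrays spread widely on them. Of 26 listed NF-kB subunits, targets and cytokines 20 had a value, 16 were below 0 and 3 were lower by at least 1, with a median of -0.32. Of all 16165 genes 8906 were below 0 and 92 lower by at least 1. Under all 4 mock arrays lay 13 of the 20, 65.0% against 26.8% of all genes. CXCL8 (IL8), a neutrophil attractant, had -3.45 on miR-373 sample 7 and -1.49, -1.47, -0.89 and 1.63 on the mock arrays. The 4 mock arrays thus spanned more than the 1.99 by which miR-373 lay under mock sample 8. IL6 was at -1.38 and CXCL2 at -1.30, and mock samples 9 and 11 differed by -2.07 and -1.90 on them. Over the list, mock sample 9 minus mock sample 11 had a median of -0.91, larger than that of miR-373 against mock.

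Other genes among the lowest under the naming rule were of several functions. DRAM1, a lysosomal membrane protein of the p53 response, had -0.95 against 0.86, 0.90, 1.22 and 1.74, a 3.58-fold difference, and GCNT3, which branches mucin-type glycans, was at -1.75. SAMD9L, an interferon gene outside the list, was at -2.22. NPR2, a natriuretic peptide receptor, was at -2.18, but this value rests on mock sample 8. NPR2 had -3.54 on miR-373 sample 7 and -2.98, -3.37 and -3.52 on mock samples 1, 9 and 11, and only mock sample 8 stood higher at -1.38, on a spot with a pixel SD of 42.3%. miR-520f sample 6 was lower by 2.23 against the same array.

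The gene whose activation the study follows was little changed at 24 h. CDH1, or E-cadherin, had -3.67 on miR-373 sample 7 and -3.95, -3.79, -2.95 and -3.73 on the mock arrays. The difference was 0.33 in the authors' table and 0.12 on the scanner scale, where the array lay within the mock range. CSDC2, the other gene described as activated by miR-373 through its promoter, was at -0.23, also within it. ZEB1, a repressor of CDH1, had -4.64 and was not well above background on the miR-373 array, whereas the mock arrays had -3.99, -4.12, -3.25 and -3.60. The bound was 1.43-fold lower for ZEB1 and 1.46-fold lower for ZEB2. Such a bound sets the brighter array against the higher of 2 values of the dimmer one, its lowest signal among probes well above background and the probe's own signal. For ZEB1 the own signal was the higher, so its value is the plain difference of both arrays and no minimum. SNAI2 was at -0.34, under all 4 mock arrays, SNAI1 at 0.02 and TCF3 at -0.01. Among genes followed by qRT-PCR, the Mediator subunit MED8 was at -0.52 and MTPN at -0.44, each under all 4 mock arrays on every probe with a value. FERMT2 was at 0.18, and GAPDH was at -0.11 and also under all 4 mock arrays by far less than 1 log2 unit.

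Epithelial genes had a median of 0.21, or 0.13 against the mean of the 4 mock arrays. Over all 4 mock arrays lay 8 of the 25, against 18.7% of all genes, and under them 2, against 26.8%. The keratins KRT18 at 0.58 and KRT8 at 0.42 lay over all 4, and cingulin (CGN), a protein of tight junctions, was at 1.03. The 22 mesenchymal genes with a value had a median of -0.03. Of these 6 lay over and 6 under the mock arrays, 27.3% each against 18.7% and 26.8% of all genes.

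Cell cycle genes moved little as groups. The 26 regulators of G1 with a value had a median of -0.12, and 13 lay under all 4 mock arrays (26.8% of all genes did), among them the inhibitors CDKN2B at -0.75, CDKN2D at -0.60, CDKN2C at -0.43 and CDKN1A (p21) at -0.44 and the pocket proteins RBL2 at -0.54 and RBL1 at -0.51. In the opposite direction CCNE1 was at 0.51 and E2F5 at 1.00. The 30 S phase genes had a median of 0.11, which turned to -0.03 against the mean of the 4 mock arrays, and the 30 genes of G2 and mitosis one of 0.01, none past 1 in either direction. The 14 housekeeping genes had a median of -0.01.

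Several lists held single strong members beside a median near 0 against mock sample 8. Of 19 genes of the Hippo pathway, LATS2 alone was past 1, STK4, the upstream kinase, was at -0.79, and the median was -0.02, but -0.18 against the mean of the 4 mock arrays. YAP target genes had a median of 0.09, which turned to -0.07 against that mean, and CTGF and CYR61, the usual reporters of this pathway, were at 0.21 and 0.32. ANKRD1, another of them, was well above background on the miR-373 array and not on mock sample 8, at least 5.71-fold higher, on an even spot with a pixel SD of 13.7%. It had -3.24 on miR-373 sample 7 and -5.87, -6.45, -5.76 and -5.22 on the mock arrays. Of 20 TGF-beta and BMP receptors and SMADs, TGFBR2 was past 1 and the median was -0.03, and the 17 targets of TGF-beta had a median of -0.01. The 28 autophagy and lysosome genes had a median of -0.11, and 14 of them lay under all 4 mock arrays (26.8% of all genes did). The mitophagy receptor BNIP3L was at -0.65.

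Among the components of small RNA silencing, TNRC6C, a partner of Argonaute, was at -0.69, AGO1 at -0.51, XPO5, which exports miRNA precursors, at 0.60, and DCP2, which removes the cap of mRNAs, at 0.98. The first 2 lay under and the last 2 over all 4 mock arrays, and the 24 genes had a median of 0.00.

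**Figure D2:**
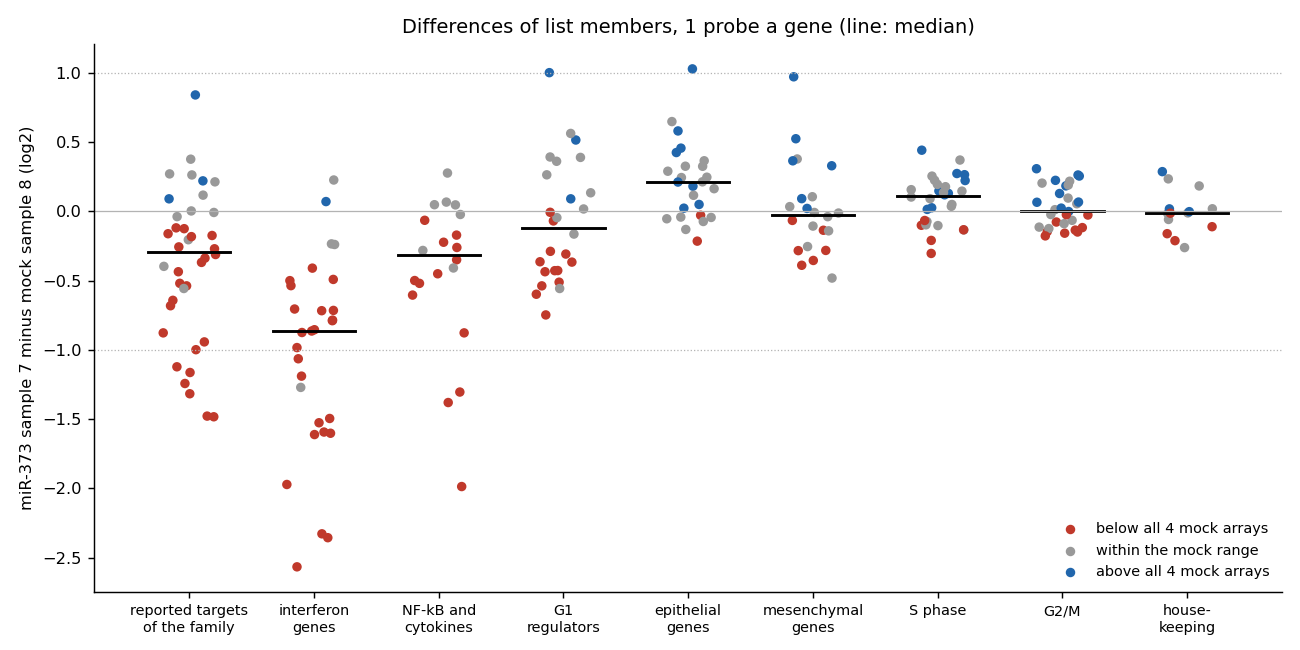
Difference of miR-373 sample 7 from mock sample 8 (log2, y axis) for the members of 9 gene lists (x axis), 1 point a gene and a black line at the median, with dotted lines at -1 and 1. Red points lie under and blue points over all 4 mock arrays. The interferon genes have the lowest median, -0.86, and the epithelial genes the highest, 0.21.

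The 12 genes that were highest under the naming rule differed in their spots and in the other arrays. In 7 of them, the value stood on an uneven spot, and the other arrays with the same seed gave smaller values, at most 1.33 (ANP32C). They include ANP32C (5.95-fold higher), CEP162 (5.67), TTLL11 (4.32), ZNF34 (3.05), SESN1 (2.86) and CTAGE6 (2.77), and the 7 had pixel SDs between 27.7% and 56.6% on miR-373 sample 7. CEP162, a protein of centrioles, had -1.30 against -3.73, -3.75, -3.85 and -3.42, and between -0.09 and 0.56 on the 5 other arrays with the common seed. Its second probe, on an even spot, differed by -0.75 on the scanner scale, in the opposite direction.

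GSTO1 and SLC4A1 stood on even spots but were high on miR-373 sample 7 alone. GSTO1, a glutathione transferase, had 5.04 against 3.31, 3.36, 3.52 and 3.82, a 3.14-fold difference with a pixel SD of 3.86%. The other arrays with the common seed gave -0.16 to 0.22, and the second probe of GSTO1 differed by -0.07. SLC4A1, the anion exchanger of red cells, was at 1.36, against -0.16 to 0.31 on the other arrays.

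In the other 3 of the 12, the difference stood on even spots and recurred on every array with the common seed. IL37, a member of the interleukin-1 family, had -0.38 on miR-373 sample 7 and -2.03, -2.20, -1.64 and -2.12 on the mock arrays, a 3.57-fold difference, and between 1.40 and 2.29 on the 5 other arrays. PDLIM2, a PDZ and LIM domain protein, was 2.47-fold higher (1.27 to 1.79 on the others) and PHACTR3, a regulator of phosphatase and actin, 2.45-fold higher (0.97 to 1.52). Of the 22 named genes that were higher by at least 1 on even spots and over all 4 mock arrays, 18 were also at 0.5 or more on all 5 other arrays. All 18 were above 0 on miR-520f sample 6 too, which has the shifted seed. PDLIM2 was at 0.16 there and the others between 0.75 (IL37) and 2.21 (SERPINB3). A rise was thus not limited to arrays with the common seed. The miR-520f array shares its mock array with miR-373, so its values are only set beside these. Above 0 on all 5 other common-seed arrays were 19 of the 22, against 20.7% of all probes. The share of all genes at 0.5 or more, or at -0.5 or lower, on all 5 was not counted. At 1 or more on all 5 were 12 of the 103 higher probes (11.7%), against 0.09% of all probes. At -1 or lower on all 5 were 31 of the 128 lower probes (24.2%), against 0.19% of all. Arrays of the same slide were set against the same mock arrays, so the 5 are no separate recurrences. The group of 18 was formed after the values were seen. Besides the 3 genes above it holds the growth factor PDGFB at 1.25, the collagen COL5A2 at 1.24, the arrestin-like ARRDC4 at 1.15, LY6K at 1.14, TTYH2 and NANOS1 at 1.08, with SERPINB3, a protease inhibitor, the collagen COL4A6 and the homeobox factor MKX between LY6K and TTYH2, the anion channel subunit LRRC8A at 1.05, TRAF4 at 1.04, GPRC5A and SIDT1 at 1.02, GPRC5B at 1.01 and E2F5. LRRC8A (4.55) and NANOS1 (-1.54) exceeded mock sample 11 (4.54 and -1.55) only narrowly. Second probes gave 2.01 for MKX, 1.07 for COL5A2, 0.80 for COL4A6 and 0.34 for LRRC8A.

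The same choice among lower genes gave 69 with even spots under all 4 mock arrays. Of these, 44 were below 0 on all 5 other arrays, against 15.5% of all probes, and 36 at -0.5 or lower on all 5. Those not named so far include RAB32, a small GTPase of organelle transport, at -1.50, LCOR, a corepressor of nuclear receptors, at -1.56, the nucleotide kinase CMPK1 at -1.36, MTMR4, a lipid phosphatase, at -1.33, TNFRSF10B, the death receptor DR5, at -1.09 (-0.23 on its other probe), and ELK4 at -1.09. For each of these 6 genes the gap to the lowest mock array was wider than the whole range of the mock arrays.

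Genes well above background on 1 of both arrays add to both directions. Only on mock sample 8 were 4388 probes and on miR-373 sample 7 alone 573. RTP4, an interferon-induced chaperone of receptors, was 7.38-fold lower by its own signal on both arrays, which is no minimum. SLC15A3, a lysosomal transporter, was at least 5.61-fold lower, ITPR2, a calcium channel, 5.37-fold and HSH2D 4.87-fold. RTP4 had -4.80 on miR-373 sample 7 and -1.91, -1.92, -1.50 and -1.56 on the mock arrays. SLC15A3 had -6.47 against -3.42, -3.43, -4.51 and -4.41, so its bound against mock sample 8 would be smaller against mock samples 9 and 11. Of the 573 probes found on miR-373 sample 7 alone, 475 (82.9%) stood on uneven spots. The 4 highest were ENDOU at 75.3-fold or more, ACP3 at 39.6-fold or more, GABRQ at 33.5-fold or more, and ECEL1 at 47.4-fold by its own signals. They did not stand well above background on any mock array (0 of 4) and had pixel SDs from 26.0% to 46.6%. The spots of ENDOU and GABRQ were close neighbours on the array, in row 13, column 15 and row 14, column 13.

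The lower genes of miR-373 were largely lower on other arrays with the common seed, which were compared with mock arrays of their own slides and share none with miR-373. The labels do not say whether those mock arrays hold RNA separate from that of mock sample 8. Mock sample 1, the control of dsEcad640, miR-302a and miR-372 sample 4, lay close to mock sample 8 (SD 0.17). A control with shared RNA can therefore not be told apart from a separate one here. Of the 128 lower probes, 127 were below 0 for miR-302a sample 3, 122 and 116 for miR-372 samples 10 and 4, 111 for dsEcad640 and 96 for miR-520c, and 82 (64.1%) on all 5, against 15.5% of all probes. Of the 103 higher probes 49 (47.6%) were above 0 on all 5, against 20.7% of all. Across probes the differences of miR-373 correlated with those of miR-302a (Pearson's r = 0.72), dsEcad640 (0.64), miR-372 samples 10 (0.54) and 4 (0.36) and miR-520c (0.34). These are correlations across 21421 to 21458 probes, given as a description. On the scanner scale, 78 probes were lower by at least 1 both for miR-373 and for miR-302a, 62.9% of those of miR-373 and 51.7% of those of miR-302a.

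Single genes were lower under miR-373 than on any of the 5 other arrays with the common seed. BATF2, at -1.24, TRAF1, at -1.05, and SLFN5, at -1.10, were the lowest relative to the nearest of the 5 other arrays after NPR2, and none of those arrays lay below -0.43, -0.28 and -0.50. BATF2 and SLFN5 are known as interferon-induced genes. TRAF1 had -3.75 on miR-373 sample 7 but -3.52 and -3.47 on mock samples 9 and 11, so most of its difference was between mock arrays. For SLFN5, miR-520f sample 6 against the same mock array gave -0.89. TGFBR2 and DAZAP2 lay the other way, with -2.20 to -1.86 and -2.75 to -1.77 on the other arrays, so that miR-373 gave the smallest difference of the 6 arrays. miR-520f, with the shifted seed, was compared with the same mock array, so its values are only set beside these. It gave -1.16 for TGFBR2, -0.90 for DAZAP2, -0.49 for LATS2, -1.81 for MBD2 and -0.45 for DRAM1.

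**Figure D3:**
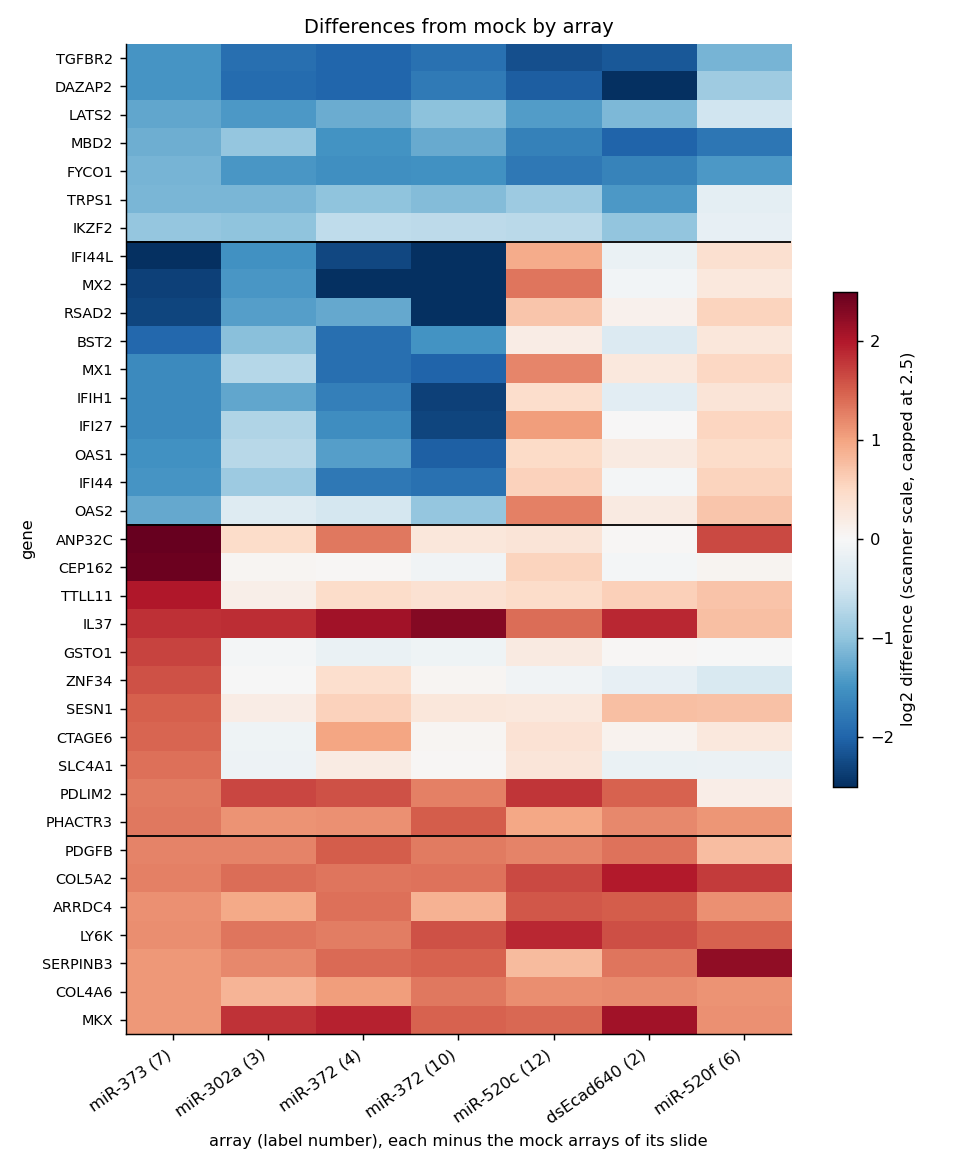
Difference from the mock arrays of the same slide (log2 on the scanner scale, colour capped at 2.5) for 7 arrays (columns, label number in brackets) and, from top to bottom, the 7 lowest reported targets, the 10 lowest interferon genes, 11 of the 12 genes that were highest under miR-373 and 7 further even-spot genes (rows). Reported targets are blue in all 6 arrays with the common seed. Interferon genes are blue for miR-373, miR-302a and miR-372, and red for miR-520c.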

How the data were processed

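Scans were quantified by the authors with Feature Extraction 10.5.1.1, and probe coordinates are those of hg18. The processed signal in these deposited scanner files is an intensity, background-subtracted within the array and not scaled between arrays. The deposited table holds log2 values of the same arrays, with a normalization that is not given in the sources used here. Its medians in set 2 were 8.82, 8.82 and 8.83, and differences were taken within that set.

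Processed signals were put on a log2 scale as the difference from each array's 75th percentile, without the 52 to 209 outlier spots of 43376 per array. The tools were Python 3.11.15, numpy 2.4.6, pandas 2.3.3, matplotlib 3.10.9, and R 4.3.3 with limma 3.58.1 for normexp with an offset of 50. A gene was represented by its brightest probe, and current symbols came from RefSeq accessions for 23958 of 41000 probes, the files' names for the rest. Counting was checked on simulated data. The number of arrays limits the precision, and no value has an error from replicates of miR-373.

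Named genes are, with miR-373 sample 7 outside the mock range, the 12 lowest and 12 highest, the 4 largest bounds and the 4 farthest from the other common-seed arrays in each direction, then list members and genes the study names. The 29 gene lists and the comparison were chosen with earlier results of these data known. Alternatives were the scanner scale, normexp, filters on dim probes, thresholds of 0.5 and 1.5, other mock arrays, the mean of a gene's probes and, added after the values were seen, even spots only. A few genes are not reported here. Sites inside probe sequences, transcripts and the sequence of dsEcad640 were not analysed here. One array of set 2 is titled miR-530f and labelled miR-520f elsewhere, and it was used as miR-520f.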

Additional observations from a re-analysis of the deposited data

Results flagged for a closer look

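For 20 of 171 genes checked, 1 of the 4 mock arrays stood apart from the other 3, by the share of the whole range that separates it from its nearest neighbour. Chance gives about 1 in 20 such groups. Mock sample 11 was the highest for IFI27 (0.93), OAS3 (0.96), ISG15 (0.86), DDX58 (0.85) and IRF7 (0.88) among interferon genes. It was also the highest for RELB (0.95), NFKB1 (0.90), NFKBIA (0.87), ICAM1 (0.87) and CXCL5 (0.83) of the NF-kB list. The same held for TNFRSF10B (0.98), TSEN34 (0.86), BDKRB1 (0.85) and ARRDC4 (0.85). Mock sample 11 was the lowest for PHACTR3 (0.87) and GBP1 (0.85). Mock sample 9 was the lowest for MX2 (0.84), OAS1 (0.88) and TRAF4 (0.89) and the highest for ZNF25 (0.85). On NFKBIA, mock sample 11 had 4.72 and the nearest mock array 3.68.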

How the results depend on the processing

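The number of probes past 1 log2 unit depended on the settings. Against 128 lower and 103 higher probes, normexp left 49 and 20, thresholds of 0.5 and 1.5 gave 1057 and 628 or 22 and 27, and the mean of the 4 mock arrays gave 251 and 578. All probes well above background on at least 1 of both arrays gave 1332 and 874 on the scanner scale, and no filter 2115 and 1582, since dim probes enter. Even spots alone kept 127 lower but 51 higher probes. Counts under the mock range were between 6082 and 6440 without 1 mock array and those over it between 4724 and 5150. The median of the interferon list lay between -1.07 and -0.81 without 1 mock array, -1.07 without mock sample 9, and that of the reported targets between -0.37 and -0.25. Among the named genes, 91 were past 1. All 91 kept their sign under the scanner scale, normexp, the mean of the mock arrays and mock sample 1. Past 1 remained 89, 37, 76 and 77 of them. Genes named for the size of their difference had to lie outside the mock range on the scanner scale. For these, that choice fixed the sign under every one of these settings but normexp, so the kept sign is no separate check. The cause of the smaller values under normexp was not tested. No paired analysis was possible because miR-373 was measured on 1 array. Signal near background limits dim genes such as CDH1 and ZEB1.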

Other observations

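Further gene lists held few genes past 1 log2 unit, and the values below are differences of miR-373 sample 7 from mock sample 8 without a test. Of 13 genes of the COPII coat, which forms vesicles at the endoplasmic reticulum, 6 lay under all 4 mock arrays (46.2%, against 26.8% of all genes). SAR1B at -0.53 and SEC31B at -0.48 followed SEC23A, and the median was -0.08. Of 21 genes of the endoplasmic reticulum stress and ATF4 response 11 lay under the mock arrays (52.4%, against 26.8% of all genes) and 1 over them. DDIT4, an inhibitor of mTORC1 signalling, was lowest at -0.67. The median was -0.09, or -0.26 against the mean of the 4 mock arrays. Among 26 genes of cholesterol and fatty acid synthesis STARD4, a carrier of cholesterol, was lowest at -0.98, and the median was -0.04, which turned to 0.03 against the mean of the mock arrays. Of 31 ubiquitin-conjugating enzymes UBE2L6, the enzyme that conjugates ISG15, was lowest at -0.79 and UBE2B followed at -0.65, with a median of 0.03.

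Of 18 genes of the BCL2 family 5 lay under and 5 over all 4 mock arrays, 27.8% each against 26.8% and 18.7% of all genes. The median was -0.03, or 0.12 against the mean of the mock arrays. BNIP3L was lowest at -0.65. The pro-apoptotic BAK1 at 0.62 and BMF at 0.57 lay over all 4 mock arrays, and both were also above 0 on the 5 other arrays with the common seed (0.58 to 0.90 and 0.45 to 1.29). The 11 enzymes that start mucin-type glycans had a median of -0.17, or -0.03 against the mean of the mock arrays, with GALNT4 at -0.56 and GALNT10 at -0.55 under all 4 mock arrays. The receptors ERBB2 at -0.33 and EGFR at -0.27 lay under all 4 mock arrays as well, and the 6 genes of this family with a value had a median of -0.23. Of the ligands of NKG2D, MICB lay under the mock arrays on both probes, at -0.18 and -0.87, and ULBP2 at -0.85 within their range. The 8 prostate genes with a value had a median of -0.13, with SLC45A3 at 0.74 over all 4 mock arrays.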
